A study of Mus musculus with 10 samples.

Results

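The TREM and CD300 receptors are surface proteins of myeloid cells, and Tyrobp encodes DAP12, the adaptor through which several of them signal. The genes described here are Tyrobp, Trem1, Trem2, Treml4, Cd300a, Cd300lb, Cd300ld and Cd300lf. They were taken by gene symbol with every probe the array platform assigns to them, which gave 9 probes for 8 genes, of 46632 probes and 17711 named genes on the array. Gene expression had been measured on 10 Illumina mouse bead arrays, on which labelled RNA binds gene-specific probes. The mice were male C57BL/6 animals, an inbred strain, 8 to 10 weeks old and untreated. There were 2 arrays each of peritoneal macrophages, of macrophages of the small intestine and of those of adipose tissue. Alveolar macrophages of the lung, Kupffer cells of the liver, splenic macrophages and bone marrow-derived macrophages (BMDM) had 1 array each. BMDM had spent 7 days in culture in M-CSF, which drives the macrophage lineage, and so differ from the tissue cells in having been cultured. Whether paired arrays stem from different animals is not stated in the labels, so p-values rest on a spread that may be purely technical. A group with 1 array was assumed to vary like the other groups.

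DAP12 has a short outside part and an inner tail with an ITAM, a motif that recruits the kinase Syk once it is phosphorylated. TREM1, TREM2 and TREML4 have no signalling motif of their own and depend on DAP12. In the CD300 family some receptors signal through DAP12 or the Fc receptor gamma chain, whereas others carry inhibitory ITIM motifs that recruit phosphatases, so that the family holds activating and inhibitory members side by side. Tissue macrophages use these receptors to sense lipids and dead cells and to set the strength of inflammatory responses.

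The genes form clusters in the mouse genome. Trem1, Trem2 and Treml4 lie on chromosome 17, where Treml4 stands between Trem3 and Treml2 and Trem2 is followed by Treml1. The CD300 genes lie on chromosome 11, where Cd300a, Cd300lb, Cd300c, Cd300ld and Cd300c2 follow each other. Tyrobp lies on chromosome 7, next to Hcst, the gene of the related adaptor DAP10. A promoter window, the 250 bases before the gene's start in RefSeq (GRCm38.p6), was found for 7 of the 8 genes. The windows of Trem2, Treml4, Cd300ld and Cd300lf are shown because these genes had the most pairs of groups that differed. Capitals mark a match to the AP-1 site TGANTCA in Trem2, both copies of a repeat in Treml4, and a match to the PU.1 box GAGGAAGT in Cd300ld. Each motif was sought on both strands.
Trem2: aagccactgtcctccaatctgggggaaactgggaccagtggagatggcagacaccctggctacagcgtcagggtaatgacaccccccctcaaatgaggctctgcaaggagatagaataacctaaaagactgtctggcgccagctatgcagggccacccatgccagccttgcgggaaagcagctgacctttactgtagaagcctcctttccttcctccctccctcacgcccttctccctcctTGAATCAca
Treml4: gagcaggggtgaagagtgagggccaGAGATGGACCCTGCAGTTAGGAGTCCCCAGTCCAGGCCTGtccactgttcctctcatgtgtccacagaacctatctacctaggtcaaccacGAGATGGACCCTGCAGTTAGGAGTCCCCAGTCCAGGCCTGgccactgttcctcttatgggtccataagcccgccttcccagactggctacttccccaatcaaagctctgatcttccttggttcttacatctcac
Cd300ld: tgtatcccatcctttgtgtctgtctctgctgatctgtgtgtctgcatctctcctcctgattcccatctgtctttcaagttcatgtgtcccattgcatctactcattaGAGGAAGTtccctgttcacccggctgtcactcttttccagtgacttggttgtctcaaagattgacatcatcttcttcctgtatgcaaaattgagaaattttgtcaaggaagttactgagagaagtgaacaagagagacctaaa
Cd300lf: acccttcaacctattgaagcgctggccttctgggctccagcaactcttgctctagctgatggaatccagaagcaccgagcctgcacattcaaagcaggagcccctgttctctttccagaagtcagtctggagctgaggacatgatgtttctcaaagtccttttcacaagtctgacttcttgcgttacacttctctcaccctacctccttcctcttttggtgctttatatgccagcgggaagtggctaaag
The windows are chr17:48346151-48346400 (plus strand) for Trem2, chr17:48264045-48264294 (plus strand) for Treml4, chr11:114989887-114990136 (minus strand) for Cd300ld and chr11:115133993-115134242 (minus strand) for Cd300lf. The AP-1 match of Trem2 began 9 bases before the start, and 6.75% of 32851 promoter windows hold such a match. The PU.1 match of Cd300ld began 143 bases before the start, and 2.44% of the windows hold one. Each motif was found in 1 of the 7 windows, and Cd300lf had neither. Treml4 carried an exact repeat of 40 bases, the only repeat of at least 12 bases in these 7 windows. In a global alignment that allows gaps, 74% of the 250 bases of the Cd300ld window matched that of Cd300ld3 and 61.6% that of Cd300lf. No unrelated windows were aligned for comparison. Probe sequences were not analysed here, so it is uncertain how well the Cd300ld probe separates Cd300ld from its close relatives Cd300ld2 to Cd300ld5, for which the platform names no probe.

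Between 22.6% and 26.4% of all probes were detected per array, a detected probe being one with a detection p under 0.01. The median raw signal separated 5 dimmer arrays (89.83 to 107.9: peritoneal replicate 1, alveolar, Kupffer, splenic and BMDM) from 5 brighter ones (135.7 to 166.5: peritoneal replicate 2 and the intestinal and adipose arrays). The peritoneal group alone had an array in each set. Its arrays correlated at r = 0.973 over the tested probes, against 0.994 in the intestine and in adipose tissue. Markers of each tissue's macrophages were listed with earlier results of these data known, and a marker could enter the test through its own group. Their counts are thus a description and no independent check. The alveolar marker Siglecf and the Kupffer marker Cd5l were detected on no array. Above the mean of the other groups in their own group were 7 of 7 tested peritoneal, 5 of 5 alveolar and 6 of 6 Kupffer markers. So were 6 of 6 intestinal and 5 of 5 adipose markers. In the spleen it was 4 of 5, and Cd163 was not detected there; Kupffer cells had 5 of 5 splenic markers above that mean as well. Markers of other cells were present as well. The splenic array detected 8 of 8 tested neutrophil, 5 of 6 T and NK cell, 2 of 2 B cell and 2 of 2 eosinophil markers, and the alveolar array detected 4 of 6 T and NK cell markers, with Cd2 at 12.07. The intestinal arrays detected 6 of 6 tested dendritic cell markers, 5 of them above the mean of the other groups, with Itgae at 12.08. Of 9 listed mast cell and basophil markers, 3 were tested. The intestinal arrays detected 1 of these, Kit at 9.58, which was also at 7.69 in the lung and 7.47 in Kupffer cells. The adipose arrays detected 6 of 7 tested markers of non-haematopoietic cells, with Dcn at 11.59, Adipoq at 9.03 and Col1a1 at 6.19. Cxcr2, Elane, Mmp8, Ngp, Ncr1, Ms4a1, Pax5, Flt3, Xcr1, Cpa3, Epcam and Alb were detected on no array.

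Levels are background-corrected, quantile-normalized log2 signals, on which a difference of 1 is a doubling. They compare groups within a probe, and levels of different probes were not compared. Of the 9 probes, 8 were detected on at least 1 array and tested. In the limma F test for any difference among the groups 8 of 8 passed an adjusted p of 0.05, as did 79.3% of all 16298 tested probes. Since a probe could enter the test through the group where it was high, this count says little by itself. Over the 21 pairs of groups, 102 of 168 tests of these probes passed, against 37.5% of such tests over all probes.  The second Cd300a probe was detected on no array, lay between 4.69 and 5.29 and was not tested.

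**Figure D1:**
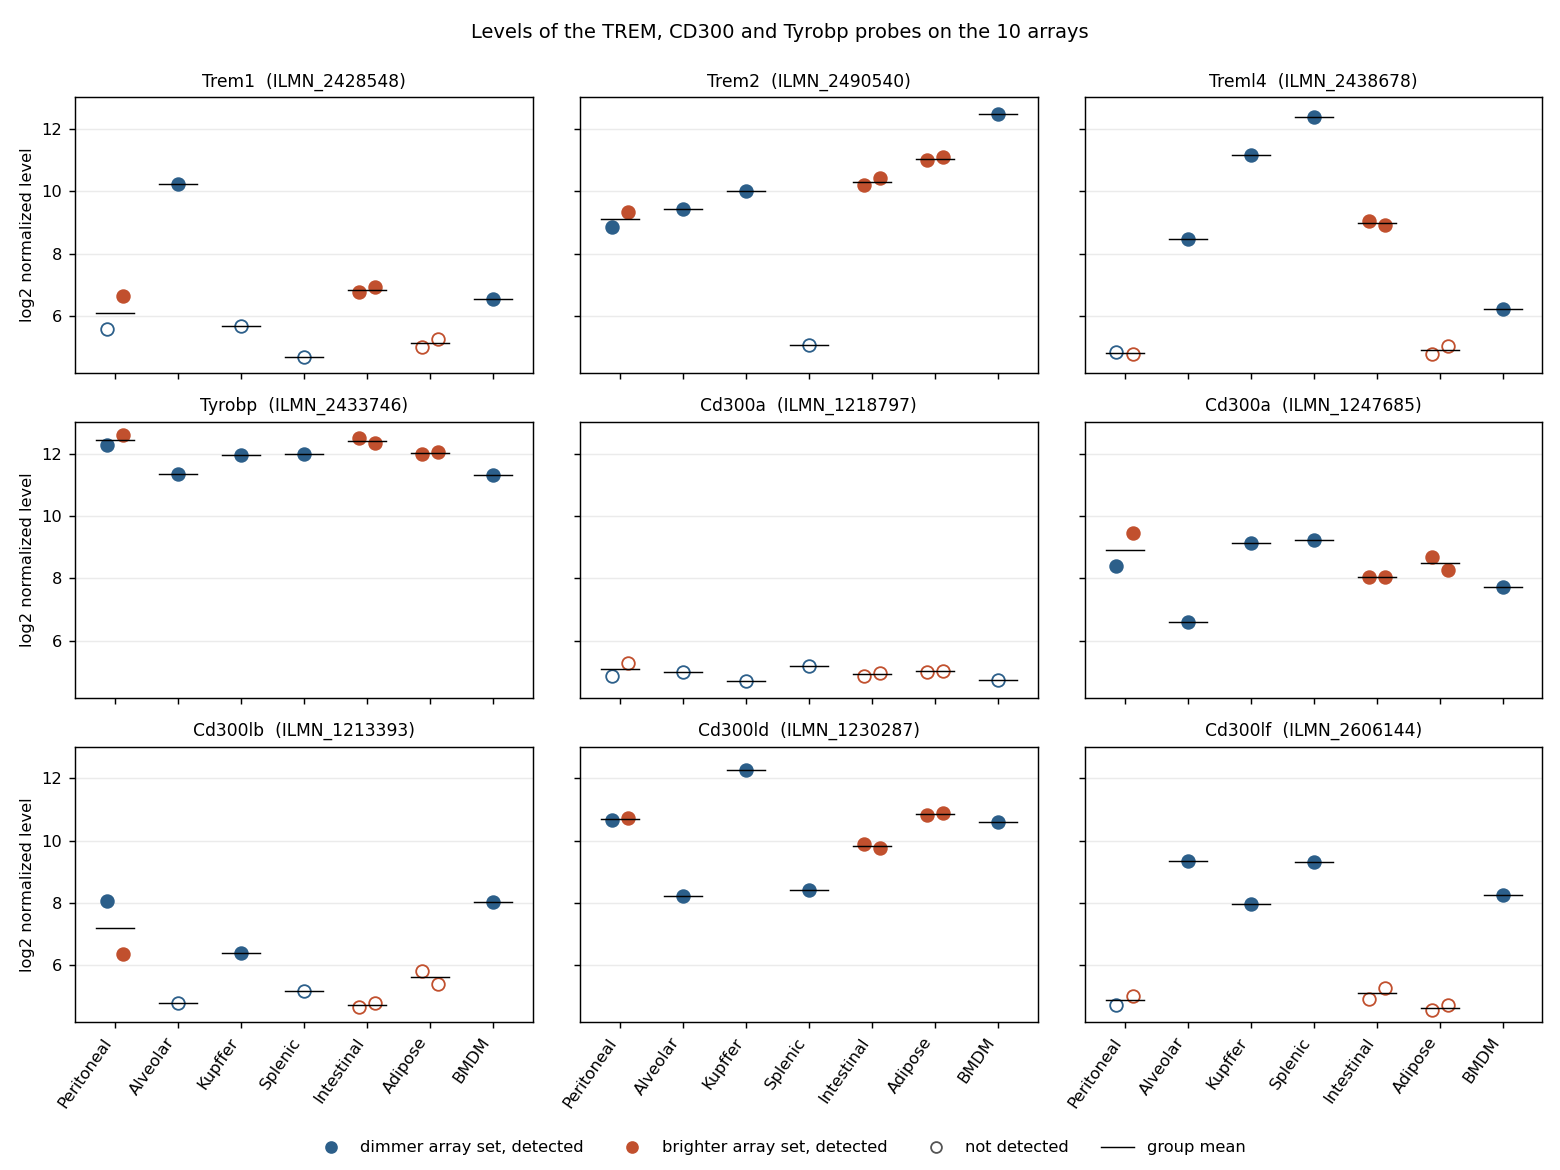
Log2 normalized level (vertical axis) of the 9 probes on each of the 10 arrays, by macrophage group (horizontal axis); each point is 1 array, open points were not detected, colours give the dimmer and brighter array sets and lines are group means. Tyrobp lies in a narrow band in all groups, while Trem1 stands out in the alveolar group, Trem2 was not detected in the spleen, Treml4 peaks in the spleen and liver, and Cd300lf is detected on 4 of the 5 dimmer arrays.

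Tyrobp, the adaptor, was detected on all 10 arrays (probe ILMN_2433746) and varied little. Its levels were 12.29 and 12.62 in peritoneal, 12.50 and 12.34 in intestinal and 11.98 and 12.07 in adipose macrophages. Kupffer cells had 11.95, splenic macrophages 11.98, alveolar macrophages 11.35 and BMDM 11.31. The alveolar and BMDM arrays were the lowest and lay below all others. The group means spanned 1.15, a range narrower than that of most probes, since only 24% of tested probes had a narrower one (F test, adjusted p = 0.0101). No neighbours in the order of levels differed beyond their spread (limma; 1 of the 6 did at an unadjusted p under 0.05), and 6 of the 21 pairs passed. Peritoneal macrophages were 2.15-fold above alveolar macrophages (log2 difference 1.11, SE 0.22, adjusted p = 0.0076) and 2.21-fold above BMDM (1.14, SE 0.22, adjusted p = 0.00549). Array set as a block is fitted from the peritoneal pair alone, the only group in both sets, so it carries the noise of that pair. The difference between adipose macrophages and BMDM (0.71, SE 0.22, adjusted p = 0.0333) shrank to 0.38 and was no longer called when array set was a block (adjusted p = 0.236). Without any single intestinal or adipose array it stayed between 0.67 and 0.75 but missed the threshold (adjusted p from 0.0699 to 0.128). In RNA from whole cell populations, fewer cells of a type and less RNA per cell cannot be told apart.

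Trem1, which amplifies inflammatory signals of Toll-like receptors, reached 10.24 in alveolar macrophages (probe ILMN_2428548). The intestinal arrays had 6.76 and 6.93, BMDM 6.54 and the second peritoneal array 6.64. It was not detected on the first peritoneal array (5.57), in Kupffer cells (5.69), in the spleen (4.69) or on the adipose arrays (5.00 and 5.26). The alveolar array thus stood above all the others, and the remaining detected arrays lay close together. Alveolar macrophages exceeded the intestinal group, the next in order, 10.5-fold (3.40, SE 0.41, adjusted p = 0.000668). Against adipose macrophages, where the probe was not detected, the level was at least 20.9-fold higher, a bound computed from the lowest detected signal of each array (adjusted p = 0.000101). The other 5 neighbouring groups did not differ beyond their spread, with adjusted p between 0.332 and 0.568. The alveolar group has 1 array, so this level has no replicate. The alveolar array detected 2 of 8 tested markers of neutrophils, cells that carry TREM1. One of them, S100a8, was at 9.54 there, the highest of the group means and 1.82 above the mean of the other groups (adjusted p = 0.000656). It was at 9.33 in the spleen and 9.19 in the peritoneal group, and was not detected in the intestine (5.70). Of the 8 markers, 1 was above the mean of the other groups in the lung and 4 were below. The median difference was -0.94, against -0.07 over all probes, and S100a9 was not detected there (4.80). The summed linear level of the 8 markers was 1237 on the alveolar array, 8484 and 8512 on the intestinal arrays, where Mmp9 was at 12.83, and 727.9 in BMDM. The 6 T and NK cell markers summed to 4751 on the alveolar array and to between 190.8 and 843.2 on the others. Cd2 was at 12.07 on the alveolar array and 6.58 in the spleen, whereas Cd3e (7.03 against 7.56), Cd3d (7.04 against 8.04), Cd3g (5.79, not detected, against 6.56) and Nkg7 (6.62 against 7.33) had lower levels in the lung than in the spleen. The part of other cells in the Trem1 level was not tested.

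Trem2 encodes a receptor for lipids and apolipoproteins that supports phagocytosis and survival of microglia and other macrophages. Its level (probe ILMN_2490540) was 12.48 in BMDM, 11 and 11.11 in adipose, 10.19 and 10.44 in intestinal macrophages and 10.00 in Kupffer cells. The alveolar array had 9.42 and the peritoneal arrays 8.87 and 9.33. On the splenic array it was not detected, at 5.07. The order of the levels therefore ran from BMDM at the top to the spleen, with a gap before the last place. BMDM exceeded adipose macrophages 2.69-fold (1.43, SE 0.25, adjusted p = 0.00345), and adipose exceeded intestinal macrophages 1.67-fold (0.74, SE 0.20, adjusted p = 0.0328). From the intestine through Kupffer cells and alveolar to peritoneal macrophages no neighbours differed beyond their spread (adjusted p from 0.185 to 0.388). The peritoneal group was at least 7.29-fold above the spleen (adjusted p = 2.73e-05), and BMDM at least 75.8-fold (adjusted p = 6.87e-06). With median scaling in place of quantile normalization the difference between adipose macrophages and BMDM shrank to -0.61 and was no longer called (adjusted p = 0.353). The difference between intestinal and adipose macrophages was -0.85 under that scaling, no smaller than before, but missed the threshold (adjusted p = 0.206). It also missed it without any single intestinal or adipose array (-0.61 to -0.87, adjusted p from 0.0929 to 0.212) and without the filter on dim probes (-0.74, adjusted p = 0.0622). BMDM and spleen, the top and the bottom of the order, are both in the dimmer array set.

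Treml4 encodes a receptor that binds dying cells and takes part in the response to RNA through TLR7 in mice. Its level (probe ILMN_2438678) was 12.40 in the spleen, 11.17 in Kupffer cells, 9.04 and 8.93 in the intestine, 8.46 in alveolar macrophages and 6.23 in BMDM. It was not detected on the peritoneal arrays (4.83 and 4.77) or the adipose arrays (4.79 and 5.02). The spleen and the liver were thus the highest, and the 4 peritoneal and adipose arrays lay below the rest. The spleen exceeded Kupffer cells 2.33-fold (1.22, SE 0.23, adjusted p = 0.0112), and Kupffer cells exceeded the intestine 4.56-fold (2.19, SE 0.20, adjusted p = 0.000253). The intestine and the lung did not differ beyond their spread (0.52, SE 0.20, adjusted p = 0.0712). Alveolar macrophages were 4.69-fold above BMDM (adjusted p = 0.000439), whose level of 6.23 was barely above the lowest detected signal of that array, 6.17. The spleen was at least 75.4-fold above peritoneal and at least 93.1-fold above adipose macrophages. Under median scaling Kupffer cells minus spleen was nearly unchanged at -1.24 but missed the threshold (adjusted p = 0.0941). Beside these values, the summed linear level of the 2 B cell markers was 5715 on the splenic array and 1445 in Kupffer cells. It was between 178.3 and 1976 elsewhere. In Kupffer cells Cd79b was at 10.46 and Cd79a was not detected (5.08), whereas the spleen had 12.38 and 8.63. The summed linear level of the 2 eosinophil markers was 879 in the spleen and between 60.09 and 138.1 elsewhere. That of the 5 monocyte markers was 405.1 in the spleen, the lowest of the 10 arrays. The part of other cells in the splenic levels of Treml4 and Trem2 was not tested.

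**Figure D2:**
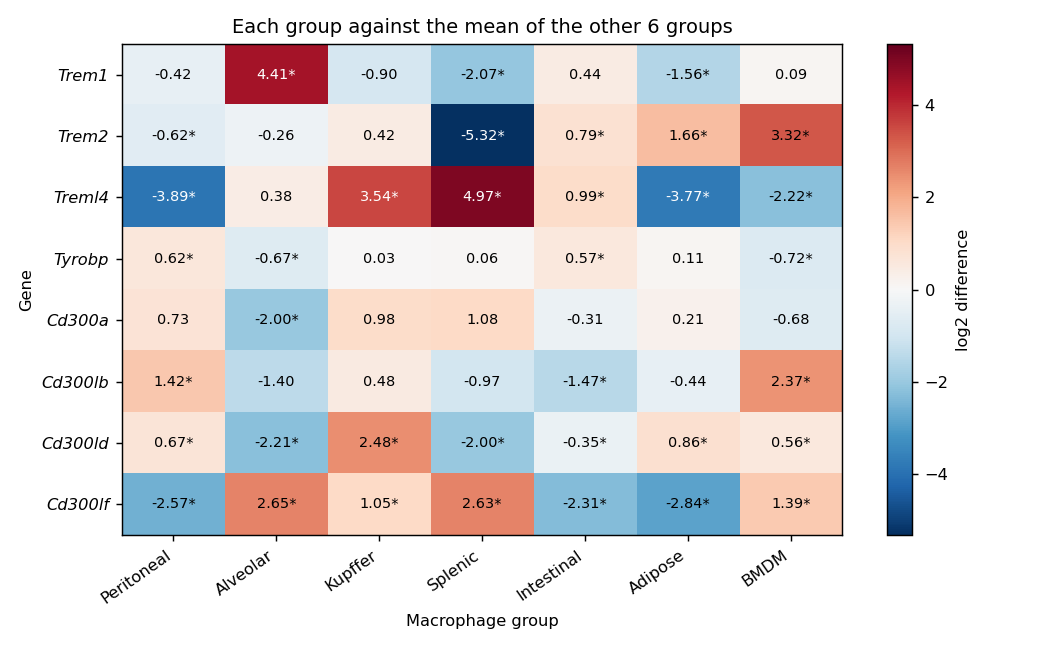
Log2 difference of each macrophage group (columns) from the mean of the other 6 groups for the 8 tested probes (rows); an asterisk marks an adjusted p under 0.05 (limma). The strongest colours are low Trem2 in the spleen (-5.32), high Treml4 in the spleen (4.97), high Trem1 in alveolar macrophages (4.41) and low Treml4 in peritoneal (-3.89) and adipose macrophages (-3.77).

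Cd300lb, an activating receptor that pairs with DAP12, was detected on 4 arrays (probe ILMN_1213393). BMDM had 8.02, the peritoneal arrays 8.07 and 6.35 and Kupffer cells 6.41. It was not detected in the lung (4.80), the spleen (5.16), the intestine (4.67 and 4.79) or adipose tissue (5.82 and 5.41). The peritoneal arrays, which come from different array sets, were farther apart than those of any other group for this probe, and the residual SD was 0.725. No neighbours differed beyond their spread (limma; 0 of 6 also at an unadjusted p under 0.05), and 8 of the 21 pairs passed. BMDM was at least 4.50-fold above intestinal macrophages (adjusted p = 0.00352) and at least 4.48-fold above adipose macrophages (adjusted p = 0.0157). The fitted difference of adipose macrophages from BMDM shrank to -0.68 when array set was a block, which is fitted from that widely spaced peritoneal pair (adjusted p = 0.109). It missed the threshold at about its size without adipose replicate 1 (-2.61, adjusted p = 0.0571) or 2 (-2.20, adjusted p = 0.0877) and without the filter on dim probes (-2.40, adjusted p = 0.0591).

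Cd300ld, an activating receptor that pairs with the Fc receptor gamma chain, was detected on all 10 arrays (probe ILMN_1230287). Kupffer cells had 12.26, the adipose arrays 10.84 and 10.89, the peritoneal arrays 10.67 and 10.74 and BMDM 10.61. The intestinal arrays had 9.89 and 9.77, the splenic array 8.41 and the alveolar array 8.24. Kupffer cells stood above all others and the spleen and lung below, and the paired arrays were nearly equal, with a residual SD of 0.058. Kupffer cells exceeded adipose macrophages 2.62-fold (1.39, SE 0.19, adjusted p = 0.00162) and alveolar macrophages 16.3-fold (4.02, SE 0.21, adjusted p = 2.33e-05). Adipose, peritoneal and bone marrow-derived macrophages did not differ beyond their spread (adjusted p of 0.465 and 0.712 for the neighbours), nor did the spleen and the lung (0.18, SE 0.21, adjusted p = 0.576). The intestine was 2.67-fold above the spleen (adjusted p = 0.00115) and 1.72-fold below BMDM (adjusted p = 0.0107). Median scaling ended the calls of Kupffer cells over adipose macrophages (0.39, adjusted p = 0.397) and of BMDM over the intestine (intestine minus BMDM -0.01, adjusted p = 0.992). The latter missed the threshold also without intestinal replicate 2 (-0.72, adjusted p = 0.0729). That scaling moved the median difference of all tested probes to -0.90 for Kupffer cells minus adipose and to 0.57 for intestine minus BMDM.

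Cd300a, an inhibitory receptor that binds phospholipids on dying cells, was detected on all 10 arrays by its brighter probe (ILMN_1247685). Its other probe, which the platform ties to a RefSeq transcript record of the gene, was detected on no array. The brighter probe is tied to a different record outside RefSeq, so these values rest on a single probe. How well it reports the RefSeq transcript was not tested. The spleen had 9.23, Kupffer cells 9.14, the peritoneal arrays 8.40 and 9.45, the adipose arrays 8.70 and 8.27, the intestinal arrays 8.03 and 8.05, BMDM 7.72 and alveolar macrophages 6.59. The alveolar array was the lowest of the 10, near its lowest detected signal of 6.33, and the other 9 lay between 7.72 and 9.45. No neighbours in the order differed beyond their spread (limma; 1 of 6 did at an unadjusted p under 0.05), but 7 of the 21 pairs passed. The spleen was 6.23-fold above the lung (2.64, SE 0.48, adjusted p = 0.00503), and the peritoneal group was 5.05-fold above it (2.34, SE 0.41, adjusted p = 0.0046). Under median scaling alveolar minus splenic was -2.77, no smaller than before, but just missed the threshold (adjusted p = 0.0511). Without the alveolar array, an alternative chosen after seeing the data, the F test for this gene no longer passed (adjusted p = 0.0591).

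Cd300lf, an inhibitory receptor that is also the entry receptor of murine norovirus, was detected on 4 arrays (probe ILMN_2606144). Alveolar macrophages had 9.35, the spleen 9.32, BMDM 8.26 and Kupffer cells 7.97. It was not detected on the peritoneal (4.72 and 5.02), intestinal (4.91 and 5.28) or adipose arrays (4.57 and 4.71). The detected and undetected groups were well separated. The 4 arrays that detected it all belong to the dimmer set, and the remaining dimmer array, peritoneal replicate 1, did not detect it. The lung and the spleen did not differ beyond their spread (0.02, SE 0.28, adjusted p = 0.961). The spleen exceeded BMDM 2.08-fold (1.06, SE 0.28, adjusted p = 0.0182), which was 0.93 and no longer called under median scaling (adjusted p = 0.115). Kupffer cells, the lowest of the detected groups, were at least 4.35-fold above the intestine (2.88, SE 0.24, adjusted p = 0.00017). The lung was at least 9.10-fold above the peritoneal and at least 11.2-fold above the adipose group.

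The same levels can be read by group, with the share of all tested probes beside each count. With 8 probes, such counts do not show whether this family differs from other genes. Against the mean of the other 6 groups, alveolar macrophages were higher in 2 of the 8 tested probes (Trem1 and Cd300lf) and lower in 3, where 16.1% of all probes were higher and 18.6% lower. Kupffer cells were higher in 3 (Treml4, Cd300ld and Cd300lf) and lower in 0 (limma; 1 was lower at an unadjusted p under 0.05), against 13.6% and 14.4% of all probes. The spleen was higher in 2 (Treml4 and Cd300lf) and lower in 3 (Trem1, Trem2 and Cd300ld), against 18.3% and 19.4%. BMDM were higher in 4 (Trem2, Cd300lb, Cd300ld and Cd300lf) and lower in 2, against 24.7% and 27.4%. Adipose macrophages were higher in 2 (Trem2 and Cd300ld) and lower in 3, against 20.9% and 20.8%. The peritoneal group was higher in 3 (Tyrobp, Cd300lb and Cd300ld) and lower in 3, against 20.7% and 22.2%. Intestinal macrophages were higher in 3 (Trem2, Treml4 and Tyrobp) and lower in 3, against 22.6% and 24.4%. Beside the intestinal differences, the summed linear level of the 6 dendritic cell markers was 15550 and 15860 on the intestinal arrays, between 4404 and 12380 in the other tissues and 24390 in BMDM, where Bst2 was the only one detected. Beside the adipose differences, that of the 7 non-haematopoietic markers was 4092 and 4618 on the adipose arrays and between 343.1 and 6563 elsewhere, highest in the spleen, where Pecam1 was at 12.62. The part of other cells in these differences was not tested.

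Several of these differences from the other groups rest on single choices. Without background correction the intestinal Treml4 difference fell from 0.99 to 0.15 (adjusted p = 0.122), that of Cd300lf in Kupffer cells from 1.05 to 0.29 (0.0802) and that of Cd300lb in the peritoneum from 1.42 to 0.57 (0.0519). On the authors' processed values they were 0.15, 0.28 and 0.57 (adjusted p of 0.132, 0.0968 and 0.0557), so that none of the 3 was called on either scale. Under median scaling Tyrobp in the peritoneum (0.79, adjusted p = 0.0639) and in BMDM (-0.92, 0.0813), Trem2 in the peritoneum (-0.69, 0.172) and Cd300ld in the peritoneum (0.77, 0.0539) missed the threshold without shrinking. Cd300lf in Kupffer cells (0.67, 0.161) and Cd300ld in BMDM (0.36, 0.421) shrank and were no longer called. The intestinal Cd300ld difference (-0.35, SE 0.12) turned to 0.35 under that scaling, where the median of all tested probes moved to 0.51. Array set as a block rests on the peritoneal pair alone. With that block, the intestinal differences of Tyrobp (0.32, adjusted p = 0.175), Trem2 (0.45, 0.0932), Cd300lb (-0.18, 0.552) and Cd300ld (-0.41, 0.0881) were no longer called. In the brighter array set alone, against the peritoneal and adipose arrays of that set, those of Tyrobp and Trem2 were 0.09 and 0.12 (adjusted p of 0.537 and 0.461). Without the filter on dim probes Cd300lb missed the threshold in the peritoneum (1.42, adjusted p = 0.0904) and in the intestine (-1.47, 0.0758) at an unchanged difference.

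Without any single intestinal or adipose array, Tyrobp in the lung (-0.66 to -0.69), Cd300ld in BMDM (0.55 to 0.57) and Cd300ld in the intestine (-0.29 to -0.41) missed the threshold at differences near the original (adjusted p from 0.0528 to 0.321). Cd300lb in the peritoneum and the intestine, Tyrobp and Trem2 in the intestine, Trem2 in the peritoneum and Trem1 in adipose tissue did so without at least 1 array of the peritoneal, intestinal and adipose groups (adjusted p from 0.0501 to 0.164). Of these, peritoneal Trem2 moved most, from -0.62 to -0.39 without peritoneal replicate 1 (adjusted p = 0.0609). Leaving out the splenic or the alveolar array was chosen after seeing the data. Cd300ld fell from 0.67 to 0.35 and 0.31 in the peritoneum (adjusted p of 0.059 and 0.0793) and from 0.56 to 0.23 and 0.19 in BMDM (0.273 and 0.345) without the one and the other. The intestinal Trem2 difference (0.79, SE 0.16) turned to -0.10 without the splenic array.

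Pairs of groups differed in between 2 and 7 of the 8 tested probes. Peritoneal macrophages differed in 7 from alveolar macrophages (33.3% of all probes), in 4 from Kupffer cells (31.4%), in 6 from the spleen (38.4%), in 4 from the intestine (45.4%), in 2 from adipose tissue (33.9%) and in 4 from BMDM (41.3%). Alveolar macrophages differed in 5 from Kupffer cells (29.3%), in 4 from the spleen (34.6%), in 6 from the intestine (43.3%), in 7 from adipose tissue (41%) and in 6 from BMDM (35.6%). Kupffer cells differed in 4 from the spleen (19.2%), in 3 from the intestine (33%), in 4 from adipose tissue (33.4%) and in 4 from BMDM (42.7%). The peritoneal and adipose groups, with the fewest differing probes, both failed to detect Treml4 and Cd300lf. The spleen differed in 5 from the intestine (38.5%), in 4 from adipose tissue (37%) and in 7 from BMDM (47.3%). The intestine differed in 4 from adipose tissue (29.3%) and in 6 from BMDM (53%), and adipose tissue differed in 6 from BMDM (46.4%).

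**Figure D3:**
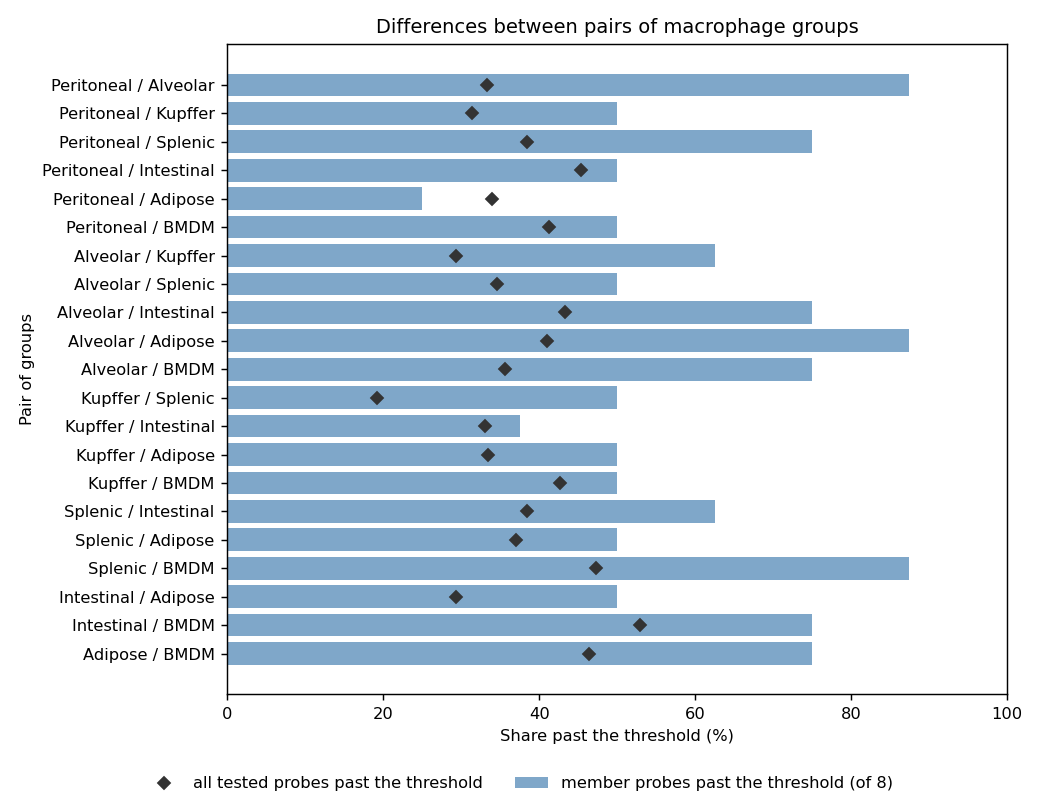
Share of tests past an adjusted p of 0.05 (horizontal axis, percent) for each of the 21 pairs of macrophage groups (vertical axis), for the 8 tested probes of these genes (bars) and for all 16298 tested probes (diamonds). Peritoneal and alveolar macrophages differed in 7 of 8 probes, and peritoneal and adipose macrophages in 2 of 8.

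The pattern across groups differed from gene to gene. Over the 7 group means, given as a description, the strongest relation among these genes was between Trem1 and Cd300a (Pearson r = -0.907, Spearman correlation -0.857), followed by Tyrobp and Cd300lf (r = -0.737, Spearman correlation -0.714) and Treml4 and Cd300lf (r = 0.639, Spearman correlation 0.571). For Tyrobp, whose means spanned a narrow range, r was -0.263 with Trem2, -0.0485 with Treml4, -0.494 with Trem1 and -0.172 with Cd300lb. With 7 means, some of them undetected, these values cannot show whether Tyrobp follows its partner receptors. All these values come from the same 10 arrays, with 4 groups of 1 array. Among 7205 named genes outside the family whose group means spanned at least 1, the closest to Trem2 were Syap1 (r = 0.9948), Rab7b (r = 0.9913) and Thoc6 (r = 0.9826). Closest to Trem1 were Hivep3 (r = 0.9779), Ppp1r14c and Cmc1. Closest to Treml4 were Fam102a (r = 0.9762), Cd3g and Eva1b. Cd3g, a chain of the T cell receptor complex, is 1 of the T and NK cell markers above. For Cd300ld they were Caskin2 (r = 0.949), Ptgr2 and Agfg1, and for Cd300lf Mtf2 (r = 0.981), Polr2g and Pgp. For Cd300a they were Trim8 (r = 0.9803), Zmynd8 and Sgsh, for Cd300lb Sumf2 (r = 0.9685), Akr1e1 and Vdac3, and for Tyrobp Map7 (r = 0.9696), Tbkbp1 and Nudt6. With 7 points and that many candidates, high values of r are common.

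Of 12 other TREM and CD300 genes listed, 7 had a probe, and 4 of these were detected on at least 1 array. All 4 passed the F test, which 79.3% of all tested probes passed. Treml1 (6.60) and Treml2 (7.23) were detected in BMDM alone. Cd300c2 was detected in the intestine alone (6.38 ± 0.18, SD, n = 2). Cd300lg, known from endothelial cells, was at 8.05 in peritoneal and 8.31 in adipose macrophages and at 6.95 in Kupffer cells, and was not detected in the other groups. The probed genes Trem3, Cd300c and Cd300e were detected on no array.

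Among other receptors and adaptors of ITAM signalling, 13 of 14 tested genes of 18 listed passed the F test, which 79.3% of all tested probes passed, with a median range of group means of 3.97 against 1.68 over all tested probes. Fcer1g, the Fc receptor gamma chain that serves Cd300ld, was detected on all arrays with group means from 14.07 to 14.96. Hcst, the neighbour of Tyrobp, ran from 9.38 in BMDM to 12.44 in peritoneal macrophages. The widest ranges belonged to C-type lectins. Clec4e (Mincle), a receptor for mycobacterial glycolipid, reached 12.07 in BMDM but went undetected in Kupffer cells, spleen, intestine or adipose tissue. Clec4d, its partner, was 103-fold higher in BMDM (13.19) than in the intestine (6.51). Clec4n (Dectin-2), a receptor for fungal mannans, was at 12.70 in the spleen and was not detected in peritoneal macrophages (5.93). Sirpb1b was 26.2-fold higher in alveolar (11.32) than in adipose macrophages (6.62). Alveolar macrophages had 6 of the 14 genes above the mean of the other groups and 1 below, where 16.1% of all probes were higher and 18.6% lower. Peritoneal macrophages had 3 above, about the 20.7% of all probes, and 7 below, against 22.2%.

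Of the kinases and signalling proteins downstream of ITAMs, 19 of 21 tested genes of 25 listed passed the F test, against 79.3% of all probes. Their median range was 2.24. Blnk, an adaptor that links Syk to phospholipase C gamma, was not detected in alveolar macrophages (5.66) and was at 11.92 in adipose macrophages. Lat2, another adaptor, was 67.6-fold higher in BMDM (12.45) than in Kupffer cells (6.37). Pik3ap1, which brings PI3-kinase to receptors, was 18.5-fold higher in BMDM (13.29) than in peritoneal macrophages (9.08). Vav2, a guanine nucleotide exchange factor, was 18.3-fold higher in the spleen (12.21) than in BMDM (8.02). The probe of Syk passed (F test, adjusted p = 0.00693) but was detected on the adipose arrays alone (6.59). In the other groups it lay between 5.1 and 5.96. The probe of Btk did not pass (adjusted p = 0.0588), and neither did that of Card9 (adjusted p = 0.545). Intestinal macrophages had 8 of the 21 genes above the mean of the other groups and 2 below, against 22.6% and 24.4% of all probes, with a median difference of 0.34 against -0.05 over all probes.

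Inhibitory ITIM receptors and phosphatases passed the F test in 16 of 16 tested genes of 20 listed, against 79.3% of all probes, with a median range of 3.38. Fcgr2b, the inhibitory Fc receptor, was at 13.21 in adipose and 12.45 in intestinal macrophages and was not detected in the spleen (5.80), where Trem2 was not detected either. Pecam1 was at 12.62 in the spleen and 12.28 in the intestine and was not detected in peritoneal macrophages or BMDM. It also marks endothelial cells, whose part in these levels was not tested. Pilra was 37.3-fold higher in the spleen (13.38) than in adipose macrophages (8.16). Ceacam1 was at 10.89 in peritoneal macrophages and was not detected in alveolar macrophages (5.91). Intestinal macrophages had 9 of these genes above the mean of the other groups and 2 below, against 22.6% and 24.4% of all probes.

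Ligands of the TREM receptors and the proteases that shed them passed the F test in 8 of 8 tested genes, against 79.3% of all probes. Apoe, the lipoprotein that TREM2 binds, was 115-fold lower in alveolar macrophages (8.22) than in Kupffer cells (15.07), and was between 12.19 and 14.89 in the other groups. Pglyrp1, a bacterial cell wall binding protein that is a ligand of TREM1, was at 10.91 in peritoneal macrophages and 8.46 in alveolar macrophages. It was not detected in Kupffer cells, spleen, adipose tissue or BMDM. Apoa1 was at 10.27 in Kupffer cells and not detected in the spleen (5.34). Clu, another apolipoprotein, was at 8.11 in Kupffer cells. Kupffer cells had 6 of the 8 genes above the mean of the other groups and 1 below, against 13.6% and 14.4% of all probes. The median difference was 1.33 against -0.08 over all probes. This group has 1 array, and the part of other liver cells in these levels was not tested.

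Genes whose induction in mouse microglia depends on Trem2 were listed as well. All 16 tested of 20 listed passed the F test, against 79.3% of all probes, with a median range of 4.71. Their levels did not follow one order with Trem2. Alveolar macrophages, where the Trem2 level was 9.42, had 11 genes above the mean of the other groups and 3 below, against 16.1% and 18.6% of all probes (median difference 1.43 against -0.07 over all probes). BMDM, highest in Trem2, had 9 above and 4 below, against 24.7% and 27.4% (0.79 against -0.07). The spleen, where Trem2 was not detected, had 6 above and 8 below, against 18.3% and 19.4% (-0.63 against -0.08). Gpnmb, a lysosomal membrane glycoprotein, was at 15.08 in BMDM and 13.91 in alveolar macrophages and not detected in the spleen (4.63). Cd9, a tetraspanin, was 151-fold higher in alveolar macrophages (14.84) than in Kupffer cells (7.60). Itgax, the integrin chain CD11c, was at 10.55 in the intestine and 10.24 in the lung and not detected in peritoneal, adipose or Kupffer macrophages. Axl, in contrast, was highest in the spleen, at 15.18.

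**Figure D4:**
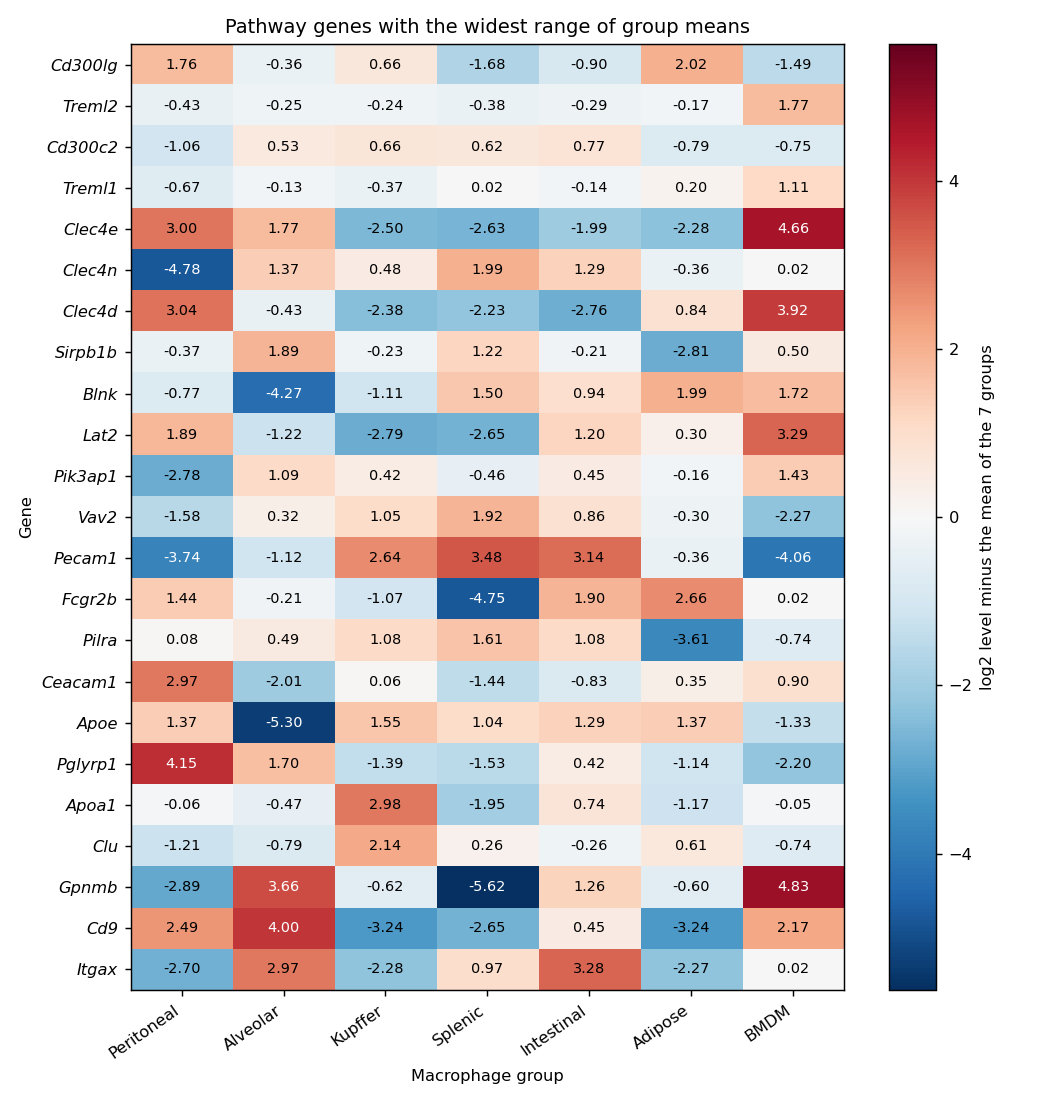
Log2 level minus the mean of the 7 group means (colour and printed value) for the 23 pathway genes with the widest ranges in their lists (rows), by macrophage group (columns). Gpnmb is lowest in the spleen, Apoe lowest in the lung, and Clec4e and Clec4d are highest in BMDM.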

How the data were processed

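RNA of each sample had been purified on RNeasy micro columns with DNase and amplified to biotin-labelled cRNA, per the labels' protocols. The deposited table holds, per the file headers, linear intensity not normalized between arrays, together with detection p-values, for 46632 probes and 10 arrays. The authors' series values are linear intensity that shares its minimum and maximum over the arrays, and how they were made is not given. The neqc function (limma 3.58.1 in R 4.3.3, offset 16) corrected the background using those p-values, normalized by quantiles and took log2. The deposited intensity was thus the only starting point of the main results. The 16298 probes that at least 1 array detected (p under 0.01) were tested.

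All arrays entered a single limma fit, with a mean for each group and moderated variances (3 residual and 4.04 prior degrees of freedom, median residual SD 0.191). It gave the F test, the 21 pairs of groups and the contrast of each group with the other 6, with Benjamini-Hochberg adjustment over all probes tested. Where no array of a group detected a probe, folds are bounds against the higher of the lowest detected signal and the probe's own value on each array. A list gene was represented by its brightest tested probe. The genes and lists were chosen with earlier results of these data known. Named were all members, up to 4 genes per list with the widest range past the F test, and the 3 genes most like each member. Fcer1g, Hcst, Syk, Btk, Card9, Axl and the other members of the family were named after their values were seen. A single symbol was given for 29976 probes, more than 1 for 10 and none for 16646. A further 135 genes known only by clone names were left out of the search for like genes. The deviations of same-numbered arrays correlated at 0.043, -0.117 and -0.083 between groups, so the replicate numbers were not taken to pair arrays. The number of arrays limits the precision. Alternatives covered background correction, scaling, offset, the authors' values, the filter on dim probes, array set, replicate number, variance trend, 1 probe per gene and leaving out arrays.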

Additional observations from a re-analysis of the deposited data

How the results depend on the processing

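Of 146 called differences followed over 19 settings, 99 kept their call under every setting that could be run. The count of probes past the F test was 12923 and lay between 10509 and 15156 when single arrays of the peritoneal, intestinal and adipose groups were left out. The 8 tested probes of these genes then stayed at 8, those of the pairs lay between 83 and 137 of 168 (102 with all arrays), and those against the other groups between 29 and 46 (36 of 56 with all arrays). The highest counts came without a peritoneal array, when the residual spread rests on the intestinal and adipose pairs. In the brighter array set alone, with 3 groups, 16 of 21 pair tests and 17 of 21 tests against the other groups passed; fewer tests exist there by construction. Without the alveolar array, chosen after seeing the data, 67 of 120 pair tests passed, again with fewer tests. The intestinal difference reversed for Cd300ld under median scaling (0.35), and the cause was not tested. That of Trem2 reversed to -0.10 without the splenic array, whose level of 5.07 then no longer lowered the mean of the other groups. With a replicate block, 12095 probes passed the F test and 101 pair tests and 35 tests against the other groups passed. The labels' numbers do not pair the arrays, and the block moved no count by over 1.5 times. Median scaling, which kept 87 pair tests, and array set as a block, which gave 127, changed single calls as stated above. That block absorbs the difference within the peritoneal pair, so the residual spread then rests on the intestinal and adipose pairs. Undetected probes have only an upper bound, and 4 groups rest on 1 array.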
